A study of Mus musculus with 15 samples.

Results

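The 8 genes described here let T cells leave, enter and stay in tissues. They are the chemokine receptors Ccr9, Cxcr4, Ccr4 and Ccr7, the sphingosine-1-phosphate receptor S1pr1, the transcription factor Klf2, and the integrin α chains Itga4 and Itgae. The members are the 8 rows among 39827 genes whose Entrez identifier maps to these symbols. The rule uses names and no threshold on a value, but the genes were chosen with earlier results of these data known. Klf2 is not a receptor but controls receptors of this group.

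RNA of leukemic T cells from the spleen was sequenced in 15 libraries, 3 in each of 5 groups. Every leukemia grew from bone marrow progenitors (GFP+, Lineage-, cKit+, Sca1+) that carried ΔE-NOTCH1, a shortened and constantly active NOTCH1, and that had been placed into C57BL/6J mice after lethal irradiation. The study asked how loss or inhibition of BCAT1, the cytosolic aminotransferase of branched-chain amino acids, changes gene expression in this model of T cell acute lymphoblastic leukemia. The groups were WT0 with ERG-245 (Bcat1 wild type, mice injected intraperitoneally with 3 doses of 30 mg/kg of this BCAT1 inhibitor, 8 h apart), KO7 and KO3 (Bcat1 knock-out, labelled PBS), WT6 (Bcat1 wild type, labelled PBS) and WT0 with PBS (Bcat1 wild type, vehicle). All groups therefore share the NOTCH1 transgene and the irradiated host, whose own cells can remain in the spleen. The labels do not explain the number in a group's name, nor do they say if a group's libraries were made from 3 mice or from 1. The p-values below then measure the spread between these libraries, which may be technical.

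A T cell finds its way by reading chemokines through G protein-coupled receptors, which switch its integrins to the adhesive state. CCR9 follows CCL25 to thymus and gut, CXCR4 follows CXCL12 to bone marrow, CCR7 follows CCL19 and CCL21 to lymph nodes, and CCR4 follows CCL17 and CCL22 to skin and inflamed tissue. S1PR1 reads sphingosine-1-phosphate in blood and lymph and leads T cells out of thymus and lymph nodes, and KLF2 drives its transcription. In T cell acute lymphoblastic leukemia, CCR7 is known for entry into the central nervous system and CXCR4 for residence in the marrow.

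Promoter sequences (RefSeq, build GRCm38.p6, the 250 bases before the annotated start, gene strand, 5′ to 3′) were found for 5 of the 8 genes. They are shown for the gene with the widest range of levels (Ccr9), the most abundant one (Cxcr4) and the transcription factor of the group (Klf2). They lie at chr9:123766961-123767210 (plus strand), chr1:128592300-128592549 (minus strand) and chr8:72318812-72319061 (plus strand). Capitals mark CCNCNCCC, the motif of the KLF and SP families, on either strand. Matches may overlap each other.
Ccr9: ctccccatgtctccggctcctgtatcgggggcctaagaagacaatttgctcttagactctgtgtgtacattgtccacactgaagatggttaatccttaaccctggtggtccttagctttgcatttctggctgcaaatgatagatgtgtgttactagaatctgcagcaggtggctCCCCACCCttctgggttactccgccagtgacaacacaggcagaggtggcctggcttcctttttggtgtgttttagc
Cxcr4: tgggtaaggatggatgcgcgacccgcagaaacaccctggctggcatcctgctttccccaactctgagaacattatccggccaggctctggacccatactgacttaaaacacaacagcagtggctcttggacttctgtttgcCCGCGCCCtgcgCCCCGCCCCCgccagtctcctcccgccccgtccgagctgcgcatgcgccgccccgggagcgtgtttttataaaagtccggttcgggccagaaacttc
Klf2: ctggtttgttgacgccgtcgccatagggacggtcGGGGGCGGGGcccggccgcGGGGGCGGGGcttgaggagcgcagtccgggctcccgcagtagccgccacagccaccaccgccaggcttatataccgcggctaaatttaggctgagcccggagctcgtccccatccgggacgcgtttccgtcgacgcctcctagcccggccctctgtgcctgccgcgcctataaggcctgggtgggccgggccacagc

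The CCNCNCCC motif had 1 match in the Ccr9 promoter, 3 in the Cxcr4 promoter and 4 in the Klf2 promoter. Ccr4 had 1 match and Itga4 had 4 over a window of the same length. The Ccr4 window (chr9:114496545-114496794, minus strand) lies inside the annotated span of that gene, not before its outer end. The motif was present in 45.6% of 27025 promoters of that length, so its presence sets none of these genes apart. TGGGAA, the core bound by the NOTCH partner RBPJ, and TGTTTAC, bound by FOXO factors, had 0 matches on either strand in all 5 promoters. They were present in 21.5% and 3.09% of all promoters. These are letters in a window and no measure of binding.

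The libraries held 17441292 to 28902573 counts and 19679 to 20968 detected genes. Levels are CPM, each gene's count relative to the scaled total of its library. Bcat1, the targeted gene, had 2.11, 2.67 and 1.48 CPM in KO7 and 6.85, 6.17 and 7.85 CPM in KO3. It had 34.8, 35.3 and 35.6 CPM in WT6. It had 14.0, 13.5 and 12.5 CPM in WT0 with ERG-245, against 18.4, 16.7 and 18.3 CPM in WT0 with PBS. The knock-out libraries lay below all wild-type ones and were not at 0. The leading T cell receptor β V segment differed in all groups, and held 49.9% of such counts in WT0 with ERG-245 (Trbv16), 79.1% in KO7 (Trbv5), 85.6% in KO3 (Trbv15), 54.4% in WT6 (Trbv19) and 39.7% in WT0 with PBS (Trbv17). Since Trbv17 held 0.93% in WT0 with ERG-245, treatment and T cell clone cannot be told apart.

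All 12 T cell markers were above 1 CPM in every group, with summed means of 3352 CPM in WT0 with ERG-245, 5191 in KO7, 5207 in KO3, 5633 in WT6 and 4078 in WT0 with PBS. Other cells of the spleen were present too. Summed erythroid markers averaged 48739 CPM in WT0 with ERG-245, 57025 in KO7, 10888 in KO3, 11828 in WT6 and 39850 in WT0 with PBS. In bulk RNA of this kind, fewer cells of a type and less RNA per cell cannot be told apart.

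**Figure D1:**
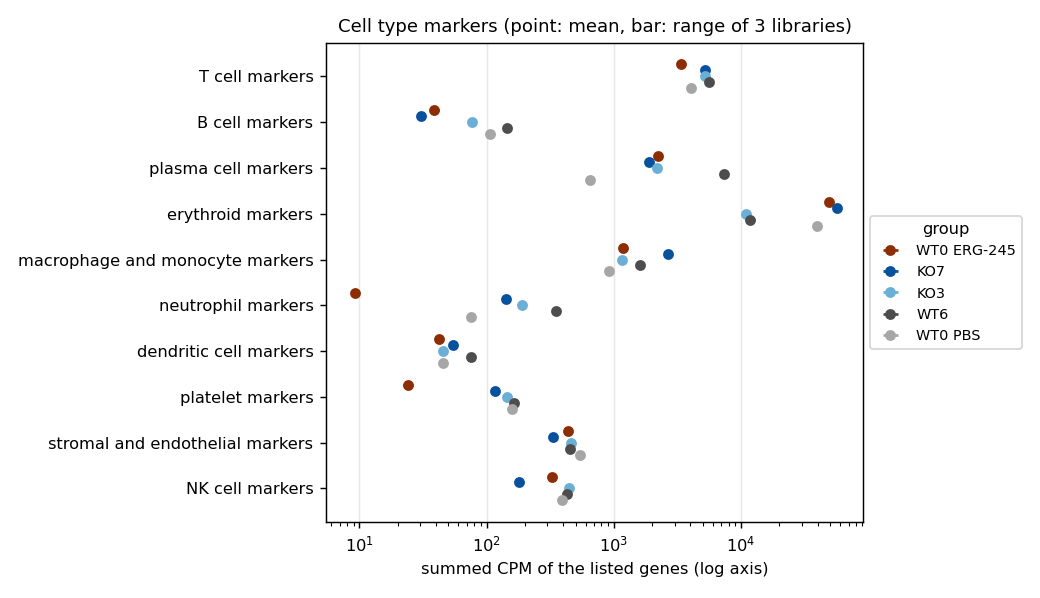
Summed level (CPM, log axis) of 10 lists of cell type markers in the 5 groups, with points for the mean and bars for the range of 3 libraries, most of which are narrower than the symbol. The erythroid sum is highest in KO7 and lowest in KO3, the plasma cell sum highest in WT6 and lowest in WT0 with PBS, and the platelet and neutrophil sums lowest in WT0 with ERG-245.

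Per kilobase of merged exons, Cxcr4 was the most abundant of the 8 genes in every group, at 94.5 CPM per kb in WT0 with ERG-245, 137 in KO7, 153 in KO3, 132 in WT6 and 113 in WT0 with PBS. Itgae was the least abundant in 4 groups, at 0.361 CPM per kb in WT0 with ERG-245 and 1.45 in WT6. In WT0 with PBS the lowest gene was Ccr9, at 0.831 CPM per kb, below Itgae at 0.994. Itga4 stood next to Cxcr4 in each group except WT6, where Ccr9 took that place at 27.7 CPM per kb and Itga4, at 10.5, lay behind Klf2 and Ccr4.

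**Figure D2:**
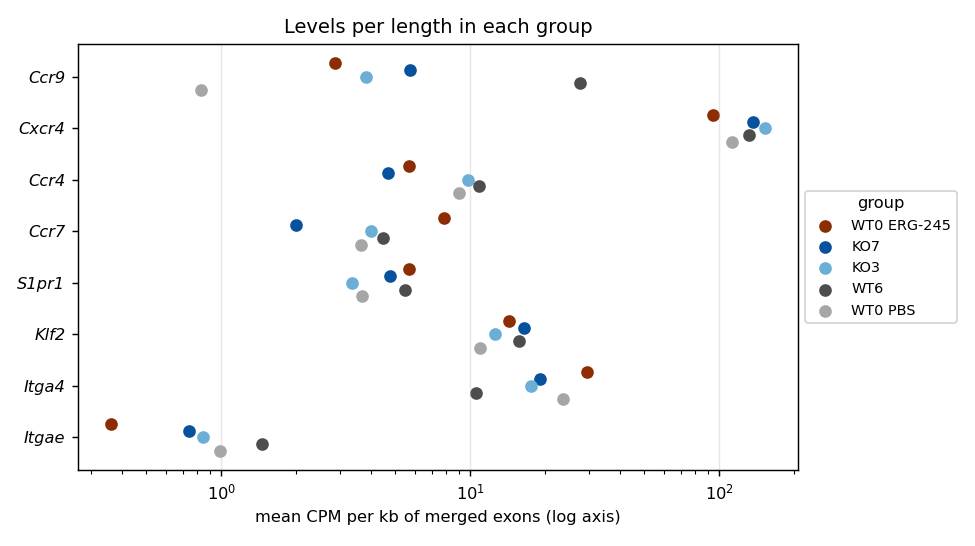
Mean level per kilobase of merged exons (CPM per kb, log axis) of the 8 genes in the 5 groups. Cxcr4 stays between 94.5 and 153 CPM per kb, whereas Ccr9 spans 0.831 to 27.7.

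The genes differed in how far their levels spread. The highest group mean of Ccr9 was 33.3 times its lowest, a ratio exceeded by 62 of the 10993 genes that averaged 5 CPM or more (0.564%). Itgae had a ratio of 4.04, Ccr7 of 3.94, Itga4 of 2.78 and Ccr4 of 2.32. S1pr1 (1.69), Cxcr4 (1.62) and Klf2 (1.503) were near the median ratio of those genes, 1.503.

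**Figure D3:**
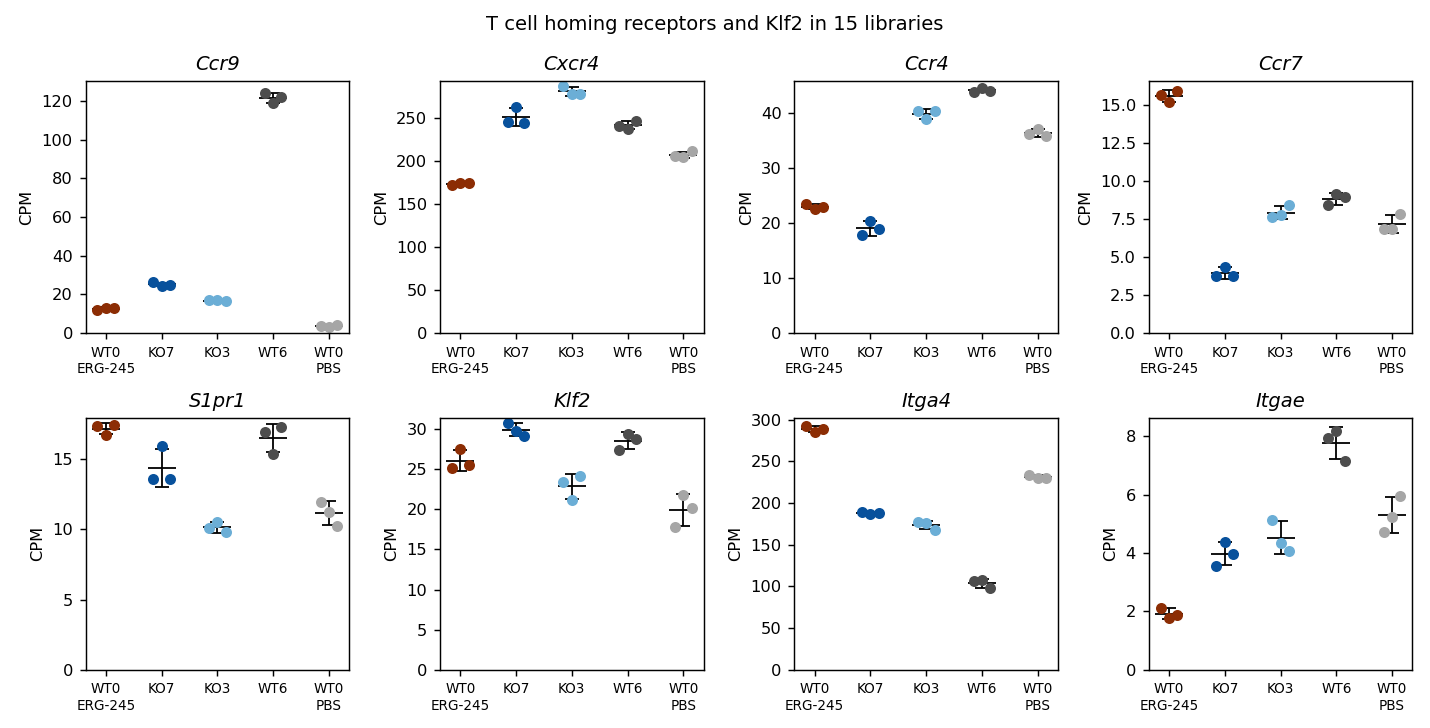
Level (CPM) of the 8 genes in each library, grouped by WT0 with ERG-245, KO7, KO3, WT6 and WT0 with PBS, with a line at each group's mean and bars for the SD of 3 libraries. Ccr9 stands at 119 to 124 CPM in WT6 and at 3.35 to 26.2 CPM in the other 12 libraries.

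Ccr9 encodes the receptor for CCL25 and lies at chr9:123767211-123783457, where its annotation overlaps the gene model Gm17021. It had 11.9, 12.8 and 13.1 CPM in WT0 with ERG-245, against 3.51, 3.35 and 4.10 CPM in WT0 with PBS. It had 26.2, 24.5 and 24.8 CPM in KO7 and 16.9, 16.9 and 16.8 CPM in KO3, against 124, 119 and 122 CPM in WT6. No pair of groups overlapped, and the order was WT6, KO7, KO3, WT0 with ERG-245 and WT0 with PBS. The log2 fold change was 1.80 (SE 0.10, edgeR adjusted p = 6.48e-27) for WT0 with ERG-245 over WT0 with PBS. KO7 differed from WT6 by log2 -2.27 (SE 0.046, edgeR adjusted p = 5.28e-56), and KO3 from WT6 by -2.85 (SE 0.048, edgeR adjusted p = 4.44e-61). Both knock-outs were however above WT0 with PBS, KO7 by log2 2.80 (SE 0.087, edgeR adjusted p = 9.9e-43) and KO3 by 2.22 (SE 0.093, edgeR adjusted p = 1.29e-34). The direction of a knock-out's difference in Ccr9 was thus set by which wild-type leukemia it was compared with, and those differed by more than any other pair, by log2 5.07 (SE 0.064, edgeR adjusted p = 1.27e-69) for WT6 over WT0 with PBS. Summed plasma cell markers were also highest in WT6 and lowest in WT0 with PBS, with means of 2215 CPM in WT0 with ERG-245, 1877 in KO7, 2187 in KO3, 7335 in WT6 and 646 in WT0 with PBS. Their part in the result was not tested. Siglech, which marks the plasmacytoid dendritic cells that use CCR9, averaged 0.0527 CPM in WT0 with ERG-245, 0 in KO7, 0.0154 in KO3, 0.145 in WT6 and 0.243 in WT0 with PBS. It was thus near the floor in every group, and the part of these cells in the result was not tested.

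Cxcr4 (chr1:128588199-128592299) encodes the receptor for CXCL12. It had 173, 175 and 175 CPM in WT0 with ERG-245, against 206, 205 and 212 CPM in WT0 with PBS. It had 246, 264 and 245.2 CPM in KO7 and 288, 279 and 279 CPM in KO3, against 241, 238 and 247 CPM in WT6. KO3 was the highest group and WT0 with ERG-245 the lowest, and among all pairs of groups only KO7 and WT6 overlapped. Cxcr4 fell in WT0 with ERG-245 by 0.25 on the log2 scale (SE 0.028, edgeR adjusted p = 4.84e-13). KO3 was higher than WT6 by log2 0.22 (SE 0.025, edgeR adjusted p = 4.59e-12), and KO7 differed from WT6 by 0.05 (SE 0.026, edgeR adjusted p = 0.054), a value that passed the threshold under DESeq2 (adjusted p = 0.0378). Against WT0 with PBS, log2 fold changes were 0.28 for KO7 (edgeR adjusted p = 2.3e-15) and 0.44 for KO3 (edgeR adjusted p = 6.81e-26). The T cell marker sums above were lowest in the same group, WT0 with ERG-245, and next lowest in WT0 with PBS, as was Cxcr4. Single markers did not all follow their sum. Relative to WT0 with PBS, 4 of the 12 were higher and 7 lower in WT0 with ERG-245 (33.0% and 32.8% of all genes). KO7 had 6 higher and 4 lower (34.5% and 34.9%), and KO3 had 10 and 1 (34.1% and 32.4%). WT6 had 9 and 3 (36.8% and 35.6%). Cd3e was highest in WT0 with PBS. Its log2 values relative to that group were -1.34 in WT0 with ERG-245, -1.23 in KO7, -0.43 in KO3 and -1.11 in WT6. The part of these markers in the result was not tested.

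Ccr4, the receptor for CCL17 and CCL22 (chr9:114490316-114505476), separated KO7 and WT0 with ERG-245 from the other groups. It had 23.5, 22.5 and 22.9 CPM in WT0 with ERG-245, against 36.1, 37.1 and 35.7 CPM in WT0 with PBS. It had 17.7, 20.4 and 18.8 CPM in KO7 and 40.2, 38.8 and 40.2 CPM in KO3, against 43.7, 44.4 and 44.0 CPM in WT6. No pair of groups overlapped. Ccr4 fell by 0.66 on the log2 scale in WT0 with ERG-245 (SE 0.056, edgeR adjusted p = 8.42e-18) and by 1.22 in KO7 relative to WT6 (SE 0.055, edgeR adjusted p = 1.18e-32). The change in KO3 relative to WT6 was log2 -0.15 (SE 0.047, edgeR adjusted p = 0.00489). Ccr4 was lower in KO7 (log2 -0.94, edgeR adjusted p = 1.51e-24) and higher in KO3 (log2 0.13, edgeR adjusted p = 0.0182) than in WT0 with PBS. The small KO3 increase lost its call without the filter on low counts (adjusted p = 0.056) and without the third WT0 library with PBS (adjusted p = 0.0509). Summed B cell markers followed the same split, with means of 38.8 CPM in WT0 with ERG-245, 30.6 in KO7, 76.2 in KO3, 146 in WT6 and 107 in WT0 with PBS. None of the 10 B cell markers was at 0 in a group. Under 1 CPM on average were 3 in WT0 with ERG-245, 4 in KO7, 2 in KO3 and 2 in WT6. Relative to WT0 with PBS, 0 were higher and 10 lower in WT0 with ERG-245 (33.0% and 32.8% of all genes). The counts were the same in KO7 (34.5% and 34.9%). In KO3, 0 were higher and 7 lower (34.1% and 32.4%), where Ccr4 was higher. The part of these markers in the result was not tested.

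Ccr7, the receptor for CCL19 and CCL21 (chr11:99144199-99155077), was highest in WT0 with ERG-245 and lowest in KO7. It had 15.6, 15.2 and 15.9 CPM in WT0 with ERG-245, against 6.84, 6.83 and 7.85 CPM in WT0 with PBS. It had 3.72, 4.37 and 3.75 CPM in KO7 and 7.60, 7.75 and 8.40 CPM in KO3, against 8.38, 9.13 and 8.95 CPM in WT6. KO3 overlapped with both WT6 and WT0 with PBS, whereas KO7 and WT0 with ERG-245 stood apart on opposite sides. Ccr7 rose by log2 1.13 in WT0 with ERG-245 (SE 0.092, edgeR adjusted p = 2.04e-18). It was lower in KO7, by log2 -1.16 relative to WT6 (SE 0.11, edgeR adjusted p = 6.38e-15) and by -0.85 relative to WT0 with PBS (SE 0.12, edgeR adjusted p = 3.94e-09). For KO3 the log2 values were -0.15 relative to WT6 (edgeR adjusted p = 0.162) and 0.15 relative to WT0 with PBS (edgeR adjusted p = 0.183). KO3 and KO7 differed from each other by log2 1.01 (SE 0.12, edgeR adjusted p = 8.52e-12).

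S1pr1 (chr3:115710433-115715055) encodes the receptor that leads T cells into blood and lymph. It had 17.4, 16.7 and 17.4 CPM in WT0 with ERG-245, against 12.0, 11.2 and 10.3 CPM in WT0 with PBS. It had 13.6, 15.96 and 13.6 CPM in KO7 and 10.1, 10.6 and 9.78 CPM in KO3, against 16.9, 15.4 and 17.3 CPM in WT6. WT6 overlapped with WT0 with ERG-245 and with KO7, and KO3 overlapped with WT0 with PBS. S1pr1 rose by log2 0.61 in WT0 with ERG-245 (SE 0.081, edgeR adjusted p = 4.5e-10). It was lower in KO3 than in WT6 by log2 -0.70 (SE 0.079, edgeR adjusted p = 2.33e-12). The KO7 difference from WT6 was log2 -0.20 (SE 0.077, edgeR adjusted p = 0.015) and did not pass under DESeq2 (adjusted p = 0.0511), nor when either the first or the third library of KO7 or of WT6 was left out (adjusted p of 0.0565 to 0.0983). Relative to WT0 with PBS, S1pr1 was higher in KO7 by log2 0.35 (edgeR adjusted p = 0.000174), and KO3 differed by -0.15 (edgeR adjusted p = 0.14). Endothelial cells also use S1PR1, and the summed stromal and endothelial markers averaged 435 CPM in WT0 with ERG-245, 333 in KO7, 459 in KO3, 450 in WT6 and 543 in WT0 with PBS. Of this list, 10 markers were tested. In WT0 with ERG-245, 8 were higher and 2 lower than in WT0 with PBS (list median log2 0.30, with 33.0% and 32.8% of all genes). Among the higher ones was the endothelial cadherin gene Cdh5 (log2 0.67, edgeR adjusted p = 1.45e-13). The 2 lower ones were the pericyte receptor gene Pdgfrb (log2 -1.07, edgeR adjusted p = 6.71e-49) and the endothelial gene Vwf (log2 -0.90, edgeR adjusted p = 1.22e-18). Relative to WT6, 4 of these markers were higher and 4 lower in KO7 (32.2% and 36.7% of all genes). In KO3, 1 was higher and 7 lower than in WT6 (27.7% and 32.0%). Their part in the result was not tested.

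Klf2 (chr8:72319062-72321654) encodes the zinc finger factor that activates S1pr1 in resting T cells. It had 25.1, 27.6 and 25.5 CPM in WT0 with ERG-245, against 17.8, 21.7 and 20.1 CPM in WT0 with PBS. It had 30.8, 29.8 and 29.2 CPM in KO7 and 23.4, 21.1 and 24.1 CPM in KO3, against 27.4, 29.4 and 28.8 CPM in WT6. WT6 overlapped with KO7 and with WT0 with ERG-245, and KO3 overlapped with WT0 with PBS. Klf2 rose by log2 0.39 in WT0 with ERG-245 (SE 0.066, edgeR adjusted p = 3.32e-07). It was lower in KO3 than in WT6 by log2 -0.32 (SE 0.060, edgeR adjusted p = 5.04e-06), while KO7 differed from WT6 by 0.07 (edgeR adjusted p = 0.296). Compared with WT0 with PBS it was higher in KO7 by log2 0.59 (edgeR adjusted p = 7.58e-13) and in KO3 by 0.20 (edgeR adjusted p = 0.00583). The last call was lost without the first WT0 library with PBS (adjusted p = 0.12).

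Itga4 encodes the α4 chain of the VLA-4 and α4β7 integrins, which bind VCAM1, fibronectin and MADCAM1. It lies at chr2:79255426-79333114 and overlaps Cerkl. It had 293, 285 and 289 CPM in WT0 with ERG-245, against 233, 230 and 230 CPM in WT0 with PBS. It had 189, 187 and 188 CPM in KO7 and 177, 176 and 167 CPM in KO3, against 106, 107 and 97.6 CPM in WT6. No pair of groups overlapped, and the WT0 groups were the highest and WT6 the lowest. Itga4 rose by log2 0.32 in WT0 with ERG-245 (SE 0.026, edgeR adjusted p = 4.74e-18). It was higher than in WT6 by log2 0.86 in KO7 (SE 0.030, edgeR adjusted p = 3.22e-40) and 0.74 in KO3 (SE 0.029, edgeR adjusted p = 5.43e-36). Relative to WT0 with PBS it was lower in both, by log2 -0.30 in KO7 (edgeR adjusted p = 5.38e-16) and -0.42 in KO3 (edgeR adjusted p = 3.56e-23). WT6 was below WT0 with PBS by log2 -1.16 (SE 0.029, edgeR adjusted p = 5.49e-50), so for this gene too the sign depended on the wild-type leukemia. Immature erythroid cells carry VLA-4, and the erythroid sums given above were high in KO7 and both WT0 groups and low in KO3 and WT6. Their part in the result was not tested.

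Itgae encodes the αE chain (CD103) of the integrin that holds T cells to E-cadherin on epithelium. It lies at chr11:73090505-73147449, overlaps Haspin, and had 34 to 239 counts per library. It had 2.12, 1.77 and 1.88 CPM in WT0 with ERG-245, against 4.71, 5.25 and 5.94 CPM in WT0 with PBS. It had 3.57, 4.37 and 3.98 CPM in KO7 and 5.15, 4.34 and 4.06 CPM in KO3, against 7.95, 8.18 and 7.14 CPM in WT6. WT6 was above and WT0 with ERG-245 below all other libraries, whereas KO3 overlapped with KO7 and with WT0 with PBS. Itgae fell by 1.45 on the log2 scale in WT0 with ERG-245 (SE 0.16, edgeR adjusted p = 1.23e-12). It was lower than in WT6 by log2 -0.97 in KO7 (SE 0.13, edgeR adjusted p = 1.62e-10) and -0.78 in KO3 (SE 0.12, edgeR adjusted p = 2.08e-08). The log2 values relative to WT0 with PBS were -0.41 in KO7 (edgeR adjusted p = 0.00766) and -0.22 in KO3 (edgeR adjusted p = 0.136). The KO7 call was lost without the third WT0 library with PBS (adjusted p = 0.0501) or the first KO7 library (adjusted p = 0.0595). Xcr1, which marks the CD103+ dendritic cells of mice, averaged 0.292 CPM in WT0 with ERG-245, 3.47 in KO7, 1.93 in KO3, 5.81 in WT6 and 2.69 in WT0 with PBS. The summed dendritic cell markers averaged 41.9 CPM in WT0 with ERG-245, 54.4 in KO7, 45.1 in KO3, 76.0 in WT6 and 45.7 in WT0 with PBS, with Siglech and Cd209a under 1 CPM in every group. Of the 7 tested, 2 were higher and 4 lower in WT0 with ERG-245 than in WT0 with PBS (33.0% and 32.8% of all genes). The higher ones were Clec10a (log2 2.89) and Zbtb46 (log2 0.40). Relative to WT6, 1 was higher and 5 lower in KO7 (32.2% and 36.7% of all genes), and 1 was higher and 6 lower in KO3 (27.7% and 32.0%). Their part in the result was not tested.

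Set side by side over the whole group, all 8 genes passed the threshold in WT0 with ERG-245 relative to WT0 with PBS, 5 higher (Ccr9, Ccr7, S1pr1, Klf2 and Itga4) and 3 lower (Cxcr4, Ccr4 and Itgae). At an edgeR adjusted p under 0.05, 65.8% of the 15948 genes tested passed in this comparison, 33.0% higher and 32.8% lower, so passing is common. The 3 that also changed at least 2-fold were Ccr9, Ccr7 and Itgae, against 11.7% of all genes. The median log2 fold change was 0.35 over the 8 genes and 0.00 over all genes tested.

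Relative to WT6, 6 of the 8 genes passed in KO7, 1 higher (Itga4) and 5 lower (Ccr9, Ccr4, Ccr7, Itgae and S1pr1), where 68.9% of all genes passed, 32.2% higher and 36.7% lower. Ccr9, Ccr4 and Ccr7 were at least 2-fold lower, against 8.17% of all genes lower and 17.5% in either direction. The median log2 fold change was -0.59 over the 8 genes and -0.03 over all. In KO3, 7 passed relative to the same WT6 libraries, 2 higher (Itga4 and Cxcr4) and 5 lower (Ccr9, Itgae, S1pr1, Klf2 and Ccr4), where 59.7% of all genes passed, 27.7% higher and 32.0% lower. Ccr9 alone of the 8 was at least 2-fold lower, against 7.46% of all genes lower and 11.5% in either direction. The medians were -0.23 over the 8 genes and -0.02 over all.

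Relative to WT0 with PBS, the same knock-out libraries gave another picture. In KO7 all 8 genes passed, 4 higher (Ccr9, Klf2, S1pr1 and Cxcr4) and 4 lower (Ccr4, Ccr7, Itgae and Itga4), where 69.4% of all genes passed, 34.5% higher and 34.9% lower. In KO3, 5 passed, 4 higher (Ccr9, Cxcr4, Klf2 and Ccr4) and Itga4 lower, where 66.6% of all genes passed, 34.1% higher and 32.4% lower. Ccr9 was the only one of the 8 genes with a change of at least 2-fold. It was higher in both comparisons, against 8.64% of all genes higher and 16.2% in either direction for KO7, and 4.45% and 12.3% for KO3. Medians were -0.01 in KO7 and 0.14 in KO3 over the 8 genes, and 0.00 over all genes in both.

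Leukemias of the same genotype differed from each other too. KO3 and KO7 differed in 7 of the 8 genes, 3 higher in KO3 (Ccr4, Ccr7 and Cxcr4) and 4 lower (Ccr9, S1pr1, Klf2 and Itga4), where 70.7% of all genes passed, 36.1% higher and 34.6% lower. Ccr4 (log2 1.07) and Ccr7 (log2 1.01) were at least 2-fold higher in KO3, against 7.29% of all genes higher and 19.6% in either direction, and Ccr7 fell just under 2-fold with DESeq2. WT6 and WT0 with PBS differed in all 8, with 7 higher in WT6 and Itga4 lower, where 72.5% of all genes passed, 36.8% higher and 35.6% lower. Here Ccr9 (log2 5.07) and Itga4 (log2 -1.16) changed at least 2-fold, against 18.9% of all genes.

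**Figure D4:**
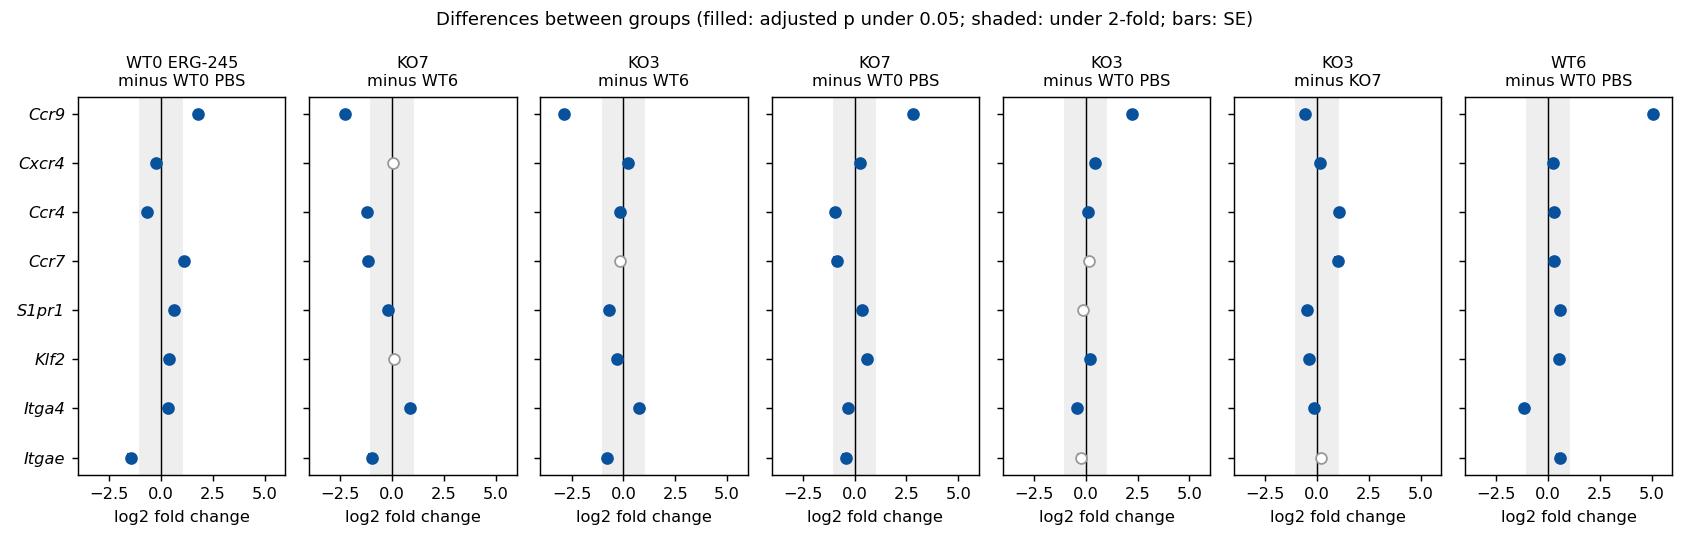
Log2 fold change of the 8 genes in 7 comparisons, each titled with the group on top first, with bars for the SE (mostly narrower than the symbol), filled points for an edgeR adjusted p under 0.05 and shading for changes under 2-fold. Ccr9 lies below 0 in both knock-outs relative to WT6 and above 0 in both relative to WT0 with PBS, and Itga4 does the opposite.

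With each leukemia taken as 1 sample (both knock-outs against both wild types, WT0 with ERG-245 left out, counts summed over 3 libraries), none of the 8 genes passed, where 0.00% of 17226 genes did by edgeR, 226 had an unadjusted p under 0.05, and DESeq2 called 43. The log2 fold changes of knock-out over wild type were -1.56 for Ccr9 (SE 1.40), -0.60 for Itgae (SE 0.44), -0.44 for Ccr4 (SE 0.40), -0.41 for Ccr7 (SE 0.50), -0.16 for S1pr1 (SE 0.38), 0.12 for Itga4 (SE 0.40), 0.14 for Klf2 (SE 0.30) and 0.26 for Cxcr4 (SE 0.20). Each gene's edgeR adjusted p was 1. The coefficient of biological variation was 41.9% between leukemias of a genotype and 2.18% between libraries of a group, and the fit had 2 residual degrees of freedom. Bcat1 itself had log2 -2.53 (SE 0.71) and an edgeR adjusted p of 1 in it.

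The ligands of these receptors are made by other cells, and 10 were measured. In WT0 with ERG-245, 5 rose and 2 fell relative to WT0 with PBS, where 33.0% of all genes were higher and 32.8% lower. In KO7, 3 were higher and 5 lower than in WT6 (32.2% and 36.7% of all genes), and in KO3, 1 was higher and 7 lower (27.7% and 32.0%). Their median log2 fold changes in these comparisons were 0.17, -0.87 and -1.10, against 0.00, -0.03 and -0.02 over all genes tested, which also stand for the lists that follow. Against WT0 with PBS, 2 ligands were higher and 5 lower in KO7 (median -0.02, with 34.5% and 34.9% of all genes), and 2 higher and 4 lower in KO3 (median -0.16, with 34.1% and 32.4% of all genes). Cxcl12, the ligand of CXCR4, averaged 53.0 CPM in WT0 with ERG-245, 160 in KO7, 37.7 in KO3, 55.9 in WT6 and 43.3 in WT0 with PBS. Vcam1, the ligand of VLA-4, averaged 469 CPM in WT0 with ERG-245, 1094 in KO7, 400 in KO3, 414 in WT6 and 305 in WT0 with PBS. Both were therefore highest in KO7, by log2 1.51 (Cxcl12, edgeR adjusted p = 3.26e-51) and 1.40 (Vcam1, edgeR adjusted p = 1.27e-63) relative to WT6. The sum of the macrophage and monocyte markers was highest in KO7 too. It averaged 1189 CPM in WT0 with ERG-245, 2648 in KO7, 1168 in KO3, 1612 in WT6 and 912 in WT0 with PBS. Of the 12 markers, 11 were higher in KO7 than in WT6 and Lyz2 was lower (32.2% and 36.7% of all genes). Relative to WT0 with PBS, 10 were higher in KO7 and 2 lower, Lyz2 and Marco (34.5% and 34.9%). Their part in the result was not tested. Fn1, which encodes fibronectin, was lower in KO7 (22.9 CPM) and KO3 (35.5 CPM) than in WT6 (112 CPM). Ccl21a, a ligand of CCR7, averaged 1.52 CPM in KO3 and 13.4 CPM in WT6, a log2 difference of -3.13 (edgeR adjusted p = 2.72e-34).

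Of 13 other chemokine receptors tested (14 listed), 4 rose and 5 fell in WT0 with ERG-245 relative to WT0 with PBS (33.0% and 32.8% of all genes). In KO7, 2 were higher and 9 lower than in WT6 (32.2% and 36.7% of all genes), and in KO3, 0 were higher and 9 lower (27.7% and 32.0%). The list medians were log2 -0.15 in WT0 with ERG-245, -1.44 in KO7 and -0.64 in KO3. Against WT0 with PBS the counts went the other way, with 9 higher and 3 lower in KO7 (median 0.71), 7 higher and 3 lower in KO3 (median 0.66), and 10 higher and 1 lower in WT6 (median 1.11). The shares over all genes were 34.5% and 34.9% for KO7, 34.1% and 32.4% for KO3, and 36.8% and 35.6% for WT6. The pair with a mean of at least 5 CPM were Ccr3, an eotaxin receptor, and Ackr3, which scavenges CXCL12. Ccr3 averaged 23.7 CPM in WT0 with ERG-245, 72.9 in KO7, 20.6 in KO3, 19.9 in WT6 and 13.0 in WT0 with PBS. Ackr3 averaged 17.2 CPM in WT0 with ERG-245, 25.99 in KO7, 11.3 in KO3, 12.0 in WT6 and 12.7 in WT0 with PBS. KO7 was the highest group for both, by log2 1.87 for Ccr3 (edgeR adjusted p = 8.77e-48) and 1.13 for Ackr3 (edgeR adjusted p = 5.43e-24) over WT6.

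The 10 genes around S1PR1, which make, move, degrade or sense sphingosine-1-phosphate (11 listed), were tested, with 2 higher and 7 lower in WT0 with ERG-245 relative to WT0 with PBS. KO7 had 4 higher and 3 lower than WT6, and KO3 had 3 higher and 4 lower. The shares over all genes, higher and lower, were 33.0% and 32.8% for WT0 with ERG-245, 32.2% and 36.7% for KO7, and 27.7% and 32.0% for KO3. Against WT0 with PBS, KO7 had 5 higher and 4 lower (median 0.09, with 34.5% and 34.9% of all genes) and KO3 had 3 higher and 4 lower (median -0.10, with 34.1% and 32.4%). Medians were log2 -0.25 in WT0 with ERG-245, and relative to WT6 0.01 in KO7 and -0.08 in KO3. Sphk1, a kinase that makes the lipid, averaged 73.6 CPM in WT0 with ERG-245, 52.9 in KO7, 21.3 in KO3, 17.7 in WT6 and 44.1 in WT0 with PBS. Mfsd2b, its exporter in red blood cells and platelets, averaged 131 CPM in WT0 with ERG-245, 112 in KO7, 32.7 in KO3, 29.8 in WT6 and 160 in WT0 with PBS. Both were high in the 3 groups with high erythroid sums, whose part in the result was not tested.

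Of 15 adhesion receptors and integrin partners, 5 rose and 5 fell in WT0 with ERG-245 relative to WT0 with PBS (33.0% and 32.8% of all genes). KO7 had 4 higher and 9 lower than WT6 (32.2% and 36.7% of all genes), and KO3 had 5 higher and 9 lower (27.7% and 32.0%). Against WT0 with PBS, KO7 had 6 higher and 5 lower (median 0.05) and KO3 had 8 higher and 5 lower (median 0.12), where the shares over all genes were 34.5% and 34.9% for KO7 and 34.1% and 32.4% for KO3. Here the medians were log2 0.05 in WT0 with ERG-245, and relative to WT6 -0.22 in KO7 and -0.47 in KO3. Itgb1, the β chain of VLA-4, averaged 347 CPM in WT0 with ERG-245, 273 in KO7, 297 in KO3, 250 in WT6 and 289 in WT0 with PBS, lowest in WT6 as Itga4 was. Itgb7, which pairs with both α4 and αE, averaged 31.2 CPM in WT0 with ERG-245, 40.1 in KO7, 22.4 in KO3, 48.0 in WT6 and 20.6 in WT0 with PBS, highest in WT6 as Itgae was. Itgb7 however rose in WT0 with ERG-245 relative to WT0 with PBS (log2 0.60, edgeR adjusted p = 1.02e-14), where Itgae fell (log2 -1.45).

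Among 11 KLF and FOXO factors and genes they control, 3 rose and 8 fell in WT0 with ERG-245 relative to WT0 with PBS (33.0% and 32.8% of all genes). KO7 had 3 higher and 6 lower than WT6 (32.2% and 36.7% of all genes), and KO3 had 4 higher and 5 lower (27.7% and 32.0%). Compared with WT0 with PBS, KO7 had 5 higher and 6 lower (median -0.17, with 34.5% and 34.9% of all genes) and KO3 had 3 higher and 5 lower (median -0.04, with 34.1% and 32.4%). Median log2 values were -0.23 in WT0 with ERG-245, and relative to WT6 -0.26 in KO7 and -0.01 in KO3. Il7r, the receptor chain for interleukin 7, averaged 23.2 CPM in WT0 with ERG-245 and 80.0 CPM in WT0 with PBS, a log2 difference of -1.79 (edgeR adjusted p = 2.66e-46), while Klf2 rose. Foxo1, which activates Klf2 and Il7r in T cells, averaged 35.9 CPM in KO3 and 84.3 CPM in WT6, a log2 difference of -1.23 (edgeR adjusted p = 3.56e-40). In that comparison Klf2 was lower (log2 -0.32) but Il7r higher (log2 0.64, edgeR adjusted p = 4.26e-21). In KO7 relative to WT6, Foxo1 (log2 -0.77, edgeR adjusted p = 1.53e-28) and Il7r (log2 -0.36, edgeR adjusted p = 7.3e-09) were both lower. Klf2 differed there by log2 0.07 (edgeR adjusted p = 0.296).

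Of 20 genes of chemokine receptor signalling and desensitisation, 7 rose and 10 fell in WT0 with ERG-245 relative to WT0 with PBS (33.0% and 32.8% of all genes). KO7 had 5 higher and 12 lower than WT6 (32.2% and 36.7% of all genes), and KO3 had 2 higher and 13 lower (27.7% and 32.0%). The medians of this list were log2 -0.10 in WT0 with ERG-245, -0.21 in KO7 and -0.12 in KO3. Relative to WT0 with PBS the balance was the other way, with 14 higher and 5 lower in KO7 (median 0.16, with 34.5% and 34.9% of all genes), 15 and 2 in KO3 (median 0.15, with 34.1% and 32.4%), and 16 and 1 in WT6 (median 0.38, with 36.8% and 35.6%). Coro1a, an actin regulator needed for T cells to leave the thymus, averaged 477 CPM in WT0 with ERG-245, 626 in KO7, 690 in KO3, 915 in WT6 and 416 in WT0 with PBS. These comparisons share the WT6 or the WT0 libraries.

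For each of the 8 genes, the 3 genes most like it in pattern were sought among 10391 genes by Pearson r of log2 CPM over the 15 libraries. The libraries form 5 groups, so r describes mainly the order of group levels. Ccr9 was followed by Herpud1, a gene of the unfolded protein response (r = 0.995), Cxcl16 (0.993) and Actr2 (0.989). Ccr4 was followed by the B cell marker Ms4a1 (0.986), Art2b (0.985) and Rapgef2 (0.984). Ms4a1 averaged 4.13 CPM in WT0 with ERG-245, 2.53 in KO7, 12.5 in KO3, 20.2 in WT6 and 13.4 in WT0 with PBS. Cxcr4 was followed by the recombinase gene Rag1 (0.978), Mpp7 (0.976) and Skp1 (0.973), and Rag1 averaged 376 CPM in WT0 with ERG-245, 770 in KO7, 945 in KO3, 760 in WT6 and 604 in WT0 with PBS. Itga4 was followed by the replication helicase gene Mcm7 (0.987), Ifih1 (0.987) and Dym (0.985). Itgae was followed by Hsf2 (0.977), the integrin chain Itgb3 (0.975) and Pcmtd1 (0.968). Platelets carry Itgb3. Summed platelet markers averaged 24.1 CPM in WT0 with ERG-245, 116 in KO7, 144 in KO3, 165 in WT6 and 159 in WT0 with PBS. These means had the same order of groups as Itgae. The sums of WT6 (163 to 166 CPM) and WT0 with PBS (155 to 165 CPM) however overlapped. Of the 9 platelet markers, 2 were higher and 2 lower in WT6 than in WT0 with PBS (36.8% and 35.6% of all genes). Their part in the result was not tested. Ccr7 was followed by Rps27l (0.969), Tstd3 (0.959) and Ankrd28 (0.958). Rnf145 (0.947) and Apobec1 (0.942) were among the 3 nearest to S1pr1, and Klf2 was followed by Atp6v0b (0.949), Neu1 (0.946) and Cdkn1a (0.944).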

How the data were processed

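The deposited table holds raw counts of fragments per gene. They came from featureCounts 2.0.1, run per the file headers with a minimum overlap of 25 bases and strand setting 2 on the RefSeq annotation of GRCm38.p6. The submitters' processing notes also name the build mm10 and the tools STAR, Trim Galore, DESeq2 and Subread. The deposited table gives the merged exon length in bases (its other unit), used here for CPM per kb. The header's alignment names of the WT0 vehicle libraries contain DMSO, whereas the labels say PBS.

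The table gave usable lines for 39827 genes, of which 39743 had a symbol and 84 had none. The 9 broken lines of Huwe1, Mycbp2 and Neb were not used. No value column belonged to another series (0 columns).

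Counts were tested in R 4.3.3 with edgeR 4.0.16 (TMM scaling, filterByExpr by group, 1 quasi-likelihood fit to 15 libraries, 10 residual degrees of freedom, 15948 genes), adjusted by Benjamini-Hochberg over all genes. All 8 members passed the filter on low counts. Genotype was also tested on counts summed per leukemia (17226 genes). DESeq2 1.42.0, RLE factors, no filter, scaling without 717 genes of other cell types and of antigen receptors, fits to 2 groups, single libraries left out and replicate number as a block were alternatives. The fit was tested on simulated data. Every pair of libraries of a group differed beyond sampling noise, so none was treated as a duplicate. CPM is the count relative to the TMM-scaled library total, and SE is the log2 fold change divided by the root of F.

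Members and gene lists were chosen with earlier results of these data known. Named genes were the members, Bcat1, from each list up to 3 genes per comparison by smallest p (mean of at least 5 CPM), and the 3 genes nearest in pattern to each member. Cell type markers named beside a result were taken from marker lists. For the nearest genes, log2 CPM used a prior count of 2. Some genes that this rule names are not reported here.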

Additional observations from a re-analysis of the deposited data

Results flagged for a closer look

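Each of the following was noted because a knock-out differed in one direction from WT6 and in the other from WT0 with PBS, or because both knock-outs differed in opposite directions from the same wild type, and the difference itself was tested in edgeR.

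Ccr9 was lower in KO7 and in KO3 than in WT6 and higher in both than in WT0 with PBS. The difference between these effects is that of WT6 over WT0 with PBS, log2 5.07 (edgeR adjusted p = 1.27e-69). Itga4 did the reverse in KO7 and in KO3, with a difference of log2 -1.16 (edgeR adjusted p = 5.49e-50). S1pr1 in KO7 was lower than in WT6 and higher than in WT0 with PBS, a difference of log2 0.56 (edgeR adjusted p = 1.73e-09). Klf2 in KO3 did the same, with a difference of log2 0.52 (edgeR adjusted p = 1.2e-11). Ccr4 in KO3 did so by log2 0.28 (edgeR adjusted p = 3.76e-07). Ccr4 was also lower in KO7 and higher in KO3 relative to WT0 with PBS, and KO3 exceeded KO7 by log2 1.07 (edgeR adjusted p = 2.66e-28).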

How the results depend on the processing

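In the 7 comparisons of the 15-library fit, 51 of 56 gene results kept their direction and their side of the threshold under all 21 alternatives, and 0 reversed. The exceptions were Cxcr4 and S1pr1 (KO7 against WT6) and Ccr4, Klf2 and Itgae (a knock-out against WT0 with PBS). Cxcr4 gained a call with DESeq2 (log2 0.06), RLE factors (0.06), 2 groups only (0.08) and some libraries left out. The number of members called ranged over 5 to 7 (main 6) for KO7 against WT6, 7 to 8 (main 8) for KO7 and 4 to 5 (main 5) for KO3 against WT0 with PBS, and was as reported in the other comparisons. In KO3 against KO7, the members changed at least 2-fold were 1 in place of 2 with DESeq2, RLE factors, 2 groups only and some libraries left out. The replicate numbers did not pair the libraries: same-numbered libraries of different groups deviated with r of -0.046 to 0.032, and 0 of 15 libraries were closest to their own number. With the replicate number as a block, the members called stayed at 8, 6, 7, 8, 5, 7 and 8 in the 7 comparisons. Leaving out 1 leukemia in turn from the sums gave log2 values of -1.004 to 0.0166 for Ccr7, -2.51 to 2.55 for Ccr9, -1.08 to 0.0064 for Ccr4, -0.43 to 0.14 for S1pr1, -0.34 to 0.82 for Itga4 and -0.0835 to 0.42 for Klf2. Ccr9 and Itga4 reversed without WT6, Ccr7 and Ccr4 without KO7, Klf2 without KO7 or WT0 with PBS, and S1pr1 without KO3 or WT6. All genes called on the sums were 0 by edgeR, 43 by DESeq2, 8 without the filter, 7 without WT6 and 3 without WT0 with PBS. The causes were not tested. In the 15-library fit, Itgae, with 34 to 239 counts per library, had SEs of 0.12 to 0.16.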
